A study of Mus musculus with 15 samples.

Results

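Aldehyde dehydrogenases and airway cytochrome P450s are 2 enzyme families that handle reactive and foreign compounds in the lung lining, and 10 of their genes were followed here across mouse lungs and lung tumours. Aldh1a1, Aldh1a3, Aldh3a1 and Aldh3b1 stand for the first family, and Cyp1a1, Cyp1b1, Cyp2a5, Cyp2b10, Cyp2s1 and Cyp4b1 for the second. A gene was read from a probe set, the group of short probes that reports 1 value per array, annotated to that gene alone. Of several such probe sets the one with the highest mean log2 value over 15 arrays was kept, a choice blind to the groups. On this rule 9 of the 10 genes were measured, of 18193 genes in all. Cyp2a5 had no probe set of its own. The 1 that reads it is also annotated to Cyp2a4, its near-identical neighbour, so its values belong to either or both genes and are kept out of every count of the 9.

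The older arrays held 3 lung tumours of mutant mice and 3 wild type lungs at 12 months, and the younger ones 3 mutant and 3 wild type lungs at 7 months. The mutant genotype, the same at both ages, includes a deletion of Smad4 (Smad4d/d), through which TGF-beta and BMP signals reach DNA. All mice were of mixed background, untreated and normally fed. Each tumour array came from a piece of 1 tumour and each of the other arrays from a piece of whole lung. Every difference from wild type belongs to the full genotype and was not traced to the loss of Smad4. Sources used here do not give the promoter that drove the recombinase. The series describes the older set as a search for genes that separate tumours from wild type lung and the younger set as a search for changes that precede tumours. The level of Smad4 was 3688, 2965 and 3255 in tumours, against 2870, 2924 and 2664 in wild type lung (adjusted p = 0.213), so its level does not check the genotype. In bulk samples such as these, more cells of a type and more RNA per cell cannot be told apart.

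Aldehyde dehydrogenases oxidise aldehydes, from fat breakdown, smoke or vitamin A, to acids. Aldh1a1 and Aldh1a3 make retinoic acid from retinaldehyde, while Aldh3a1 and Aldh3b1 act mainly on aldehydes of lipid origin. Cytochrome P450s are haem enzymes that add oxygen to steroids, fatty acids and foreign compounds, and in mouse lung club cells, the secretory cells of the airway, carry many of them. Cyp1a1 and Cyp1b1 are classic targets of the aryl hydrocarbon receptor AHR, and both activate carcinogens of tobacco smoke.

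AHR binds DNA with its partner Arnt at sites built round the letters GCGTG. The promoters of Cyp1a1 and Cyp1b1 are shown because these neighbours in the pathway had opposite signs below. Both windows run from 250 bases before the start of the gene to 50 after it (RefSeq, GRCm38.p6), 5′ to 3′ on the gene's strand, and capitals mark the core on either strand. That of Cyp1a1 lies at chr9:57697363-57697662 on the plus strand and holds the core 54 bases before the start. That of Cyp1b1 lies at chr17:79715012-79715311 on the minus strand and holds it 76 bases before the start, as its complement CACGC.
Cyp1a1: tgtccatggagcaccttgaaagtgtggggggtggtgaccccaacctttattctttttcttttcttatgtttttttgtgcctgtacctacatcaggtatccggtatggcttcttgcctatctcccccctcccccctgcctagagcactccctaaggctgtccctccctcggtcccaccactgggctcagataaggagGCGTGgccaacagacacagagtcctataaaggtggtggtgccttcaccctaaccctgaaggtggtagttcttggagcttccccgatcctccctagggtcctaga
Cyp1b1: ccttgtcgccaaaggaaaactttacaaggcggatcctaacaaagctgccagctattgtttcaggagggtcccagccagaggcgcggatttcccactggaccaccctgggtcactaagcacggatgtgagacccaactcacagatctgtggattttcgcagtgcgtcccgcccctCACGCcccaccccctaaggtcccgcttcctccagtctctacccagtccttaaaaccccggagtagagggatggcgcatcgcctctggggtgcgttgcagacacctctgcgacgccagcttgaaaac
Of the 10 genes, 8 had a window in the RefSeq table, and Aldh1a1 had a pair of them. The core also stood in the window of Cyp2b10, at 101 and 9 bases before the start, so 3 of the 9 windows held it. Of 32851 windows of all genes, 32.39% held it. The core of the antioxidant response element, TGACNNNGC on either strand, stood in 0 of the 9 windows, and in 12.39% of all windows. A match of letters is a description and no evidence of binding.

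Both ages held a wild type array that stood apart. Alb, the plasma albumin made by hepatocytes, read 9591 on wild type array 1 at 12 months, against 44.3 and 102 on the other two. On wild type array 2 at 7 months it read 6121, against 48.7 and 63.2. Summed over 4 hepatocyte markers, tumours lay between 180 and 1681 and 12-month wild type lungs at 166, 256 and 17986, while mutant lungs lay between 84.9 and 117 and 7-month wild type lungs at 92.5, 119 and 11551. In the 3 tumours Alb read 71.4, 1157 and 636. The liver P450 Cyp2e1 was at 4675 and 2321 on those 2 wild type arrays. It read 1419 and 1292 on the other wild type lungs at 12 months, and 656 and 880 at 7 months. Tumours read 1791, 1646 and 3060 for Cyp2e1, and mutant lungs 602, 1052 and 483. Where leaving out the 2 wild type arrays changes a call of a gene described below, or a count of a list, the value without them is given. The sexes differed too. Xist, which the silenced X chromosome of females makes, read above 1000 on 0 of 3 tumours and 2 of 3 wild type lungs at 12 months, and on 3 of 3 mutant and 2 of 3 wild type lungs at 7 months. Values are intensities on a linear scale. Differences are log2 fold changes on the log2(intensity + 16) scale with their standard error, which understate the change of dim probe sets. They were tested with limma over all 18193 genes and called at an adjusted p under 0.05. Without the 2 arrays rich in Alb, 715 of all genes were called higher and 262 lower in tumours, against 1679 and 1095 with all arrays. In mutant lungs these counts were 1037 and 180, against 1168 and 253. Leaving out wild type array 2 or 3 at 12 months instead gave 918 and 346 or 622 and 220 in tumours. Why a gene lost its call was not tested.

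In tumours 3 of the 9 measured genes were called higher and 0 lower: Aldh1a3, Aldh3a1 and Cyp1b1. Over all genes, 9.23% were called higher and 6.02% lower. In mutant lungs at 7 months 3 of the 9 were also called higher and 0 lower, Aldh3a1, Aldh3b1 and Cyp2s1, beside 6.42% and 1.39% of all genes. The balance over all genes depended on the scaling: after median centring of the arrays 1327 genes were called higher and 1789 lower in tumours, against 1679 and 1095 as deposited. In mutant lungs 916 were then called higher and 1025 lower, and 977 and 424 after quantile normalization, against 1168 and 253 as deposited. Among the 9 genes 3 were called higher and 0 lower at both ages under either scaling. Aldh3a1 was the gene called at both ages. The median log2 fold change of the 9 genes was 0.37 in tumours and 0.43 in mutant lungs, with medians over all genes of 0.01 at both ages. The groups did not overlap for 4 of the 9 genes in tumours, all higher (20.5% of all genes higher, 17.0% lower). In mutant lungs this held for 5 genes, 4 higher and 1 lower (15.2% and 10.9% of all genes).

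**Figure D1:**
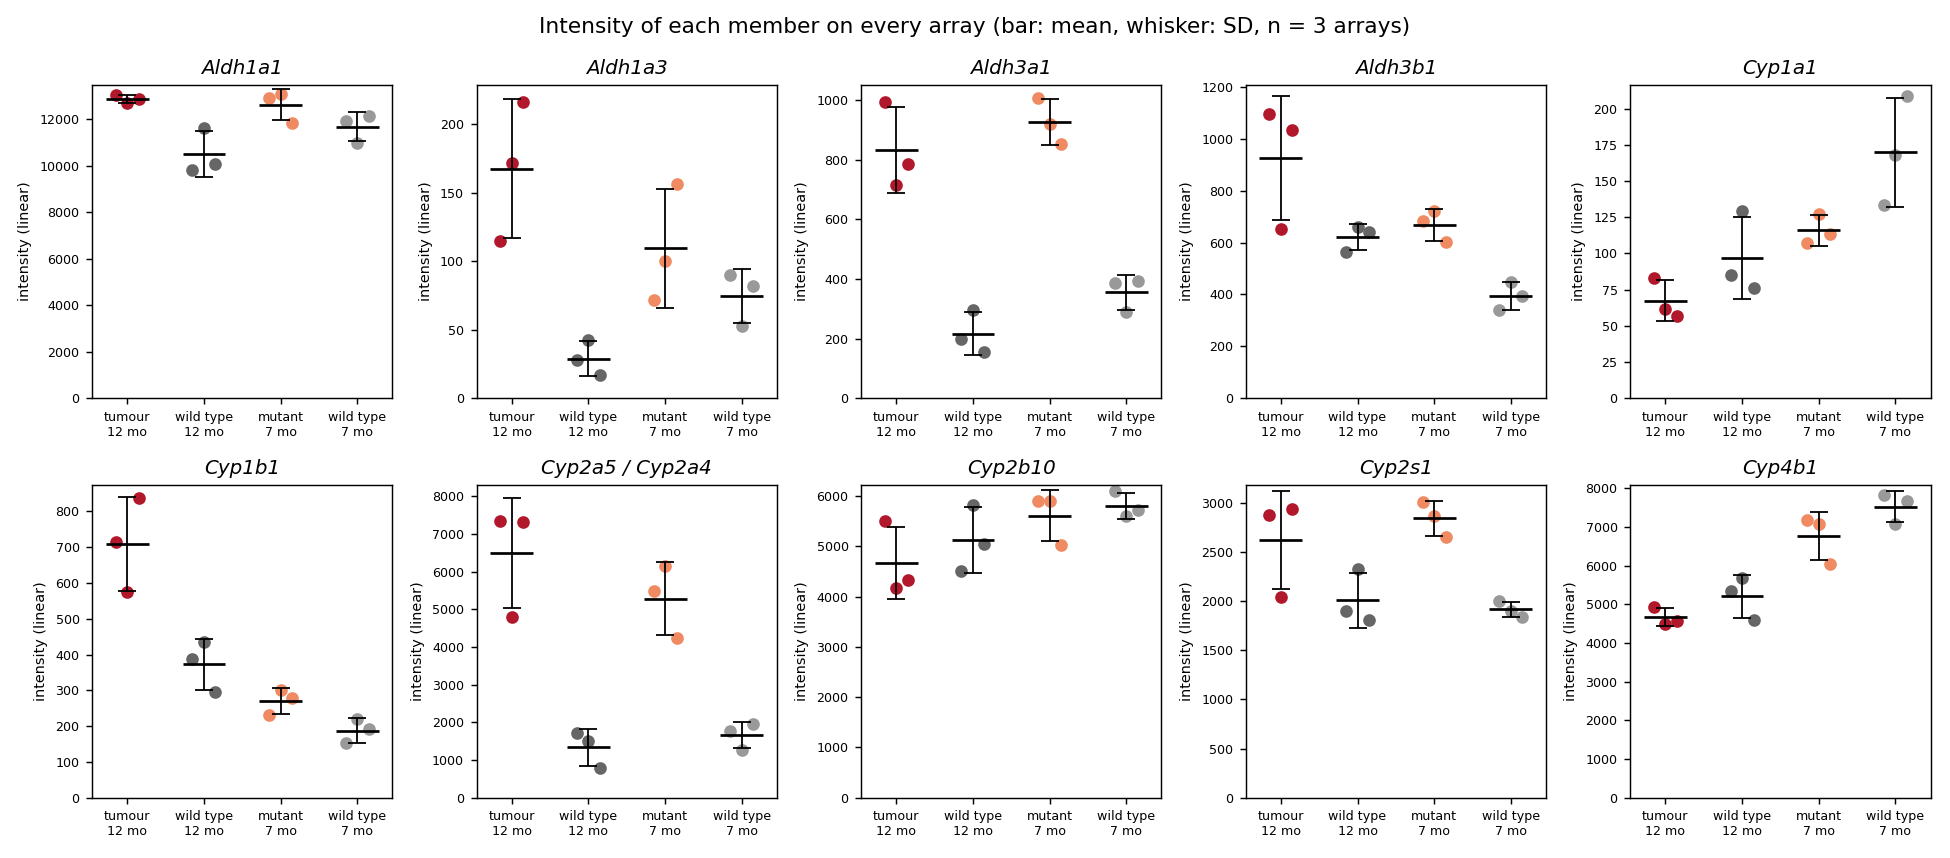
Intensity (linear scale, from 0) of each gene on every array, with 1 panel per gene, a point per array, the mean as a bar and the SD as a whisker (n = 3), for tumours and wild type lung at 12 months and mutant and wild type lung at 7 months. Aldh3a1 and the shared Cyp2a5 and Cyp2a4 probe set lie above wild type on every array at both ages, while Cyp2b10 and Cyp4b1 overlap with wild type at both.

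Among the retinaldehyde dehydrogenases, Aldh1a3 rose in tumours. It read 115, 172 and 216 in the 3 tumours, against 27.95, 42.1 and 16.5 in wild type lung at 12 months. Every tumour lay above every wild type lung by more than the whole wild type range. The log2 fold change was 2.03 ± 0.28 (4.10-fold, adjusted p = 0.0103), and the call held with any 1 array left out. Aldh1a3 has 2 further probe sets on the array, with mean intensities of at most 26.2 in every group, and neither was called. At 7 months Aldh1a3 read 71.4, 100.02 and 156 in mutant lungs, against 89.96, 52.5 and 81.7 in wild type lung. These groups overlapped (log2 fold change 0.43 ± 0.25, adjusted p = 0.345).

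The tumour effect on Aldh1a3 exceeded that in mutant lung by 1.60 ± 0.40 on the log2 scale (adjusted p = 0.0499), the 1 difference between ages called among the 9 genes. Over all genes 1.75% had a called difference in this direction and 1.41% in the other. It stood just inside the threshold, and was called under 9 of 22 alternatives, with adjusted p from 0.0313 to 0.319. It lost its call without tumour array 3 (adjusted p = 0.119) and without any of 6 other single arrays. The call was also lost without both wild type arrays rich in albumin (1.80, adjusted p = 0.0658). Wild type lung averaged 28.8 at 12 months and 74.7 at 7 months, while tumours (115 to 216) and mutant lungs (71.4 to 156) overlapped. Age, tumour against whole lung and the set of arrays differed together here and cannot be told apart.

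Aldh1a1 gave one of the strongest signals on the array. It read 13049, 12688 and 12893 in tumours, against 9831, 11642 and 10059 in wild type lung. The tumours were all higher and lay close together, but the difference of 0.30 ± 0.09 missed the threshold (adjusted p = 0.0834). The strongest value of any probe set was between 15174 and 17030 on each array, so Aldh1a1 lay near the top of the measured range. At 7 months it read 12902, 13109 and 11859.7 in mutant lungs, against 11931, 10981 and 12141 in wild type lung (0.11 ± 0.07, adjusted p = 0.381), with groups that overlapped. Aldh1a7, a near copy of Aldh1a1 whose probes could share its transcripts, rose by 0.54 ± 0.13 in tumours (adjusted p = 0.0419) and by 0.41 ± 0.07 in mutant lungs (adjusted p = 0.00599). The tumour call of Aldh1a7 was lost without the albumin-rich wild type array (0.49, adjusted p = 0.126).

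Aldh3a1, which clears aldehydes of lipid peroxidation, rose at both ages. It read 996, 716 and 787 in tumours, against 198, 297 and 154 in wild type lung. In mutant lungs at 7 months it read 1009, 922 and 853, against 386, 289 and 393 in wild type lung. Every tumour and every mutant lung lay above every wild type lung of its age. The log2 fold change was 1.90 ± 0.24 in tumours (3.74-fold, adjusted p = 0.00920) and 1.35 ± 0.12 in mutant lungs (2.56-fold, adjusted p = 0.000365). The effects differed by 0.55 ± 0.27 (95% interval -0.05 to 1.14, adjusted p = 0.310). Both calls held with any 1 array left out, and without both albumin-rich arrays (1.86 with adjusted p = 0.0378 in tumours, 1.22 with adjusted p = 0.000741 in mutant lungs).

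Aldh3b1, a membrane-bound relative that acts on fatty aldehydes, rose in mutant lungs. It read 682, 723 and 601 there, against 339, 449 and 395 in wild type lung at 7 months. The lowest mutant value stood above the highest wild type value, and the log2 fold change was 0.74 ± 0.11 (1.67-fold, adjusted p = 0.00394). Its tumour values of 1095, 652 and 1034 stood against 563, 660 and 641 in wild type lung. Tumour array 2 lay within the wild type range and the other two well above it. The difference of 0.53 ± 0.21 was not called (adjusted p = 0.138), but without that array it was 0.77 (adjusted p = 0.0111). Aldh3b2, its near copy, was not called at either age (0.18 ± 0.12 in tumours and -0.07 ± 0.12 in mutant lungs).

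Of the AHR-responsive P450s, Cyp1b1 rose in tumours while Cyp1a1 was not called at either age. Cyp1b1, which also hydroxylates oestrogen, read 713, 576 and 838 in tumours, against 387, 435 and 296 in wild type lung. Each tumour was above each wild type lung (0.90 ± 0.19, 1.87-fold, adjusted p = 0.0281). A second probe set of Cyp1b1 was also called higher in tumours (1.09 ± 0.21, adjusted p = 0.0276 over all probe sets), and the third was below 16 on average in every group. Leaving out any 1 of 5 of the 6 arrays lost the call, with log2 fold changes from 0.75 to 1.02 and adjusted p from 0.0511 to 0.0857. Without the albumin-rich one of them the value was 0.93 (adjusted p = 0.0787). The call held without tumour array 2 (1.04, adjusted p = 0.0215). At 7 months Cyp1b1 read 230.01, 301 and 279 in mutant lungs, against 152, 221 and 191 in wild type lung. These groups did not overlap either, but the difference of 0.49 ± 0.14 missed the threshold (adjusted p = 0.0736), and passed it without the albumin-rich array (0.61, adjusted p = 0.0422).

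Cyp1a1 read 83.3, 61.7 and 56.6 in tumours, against 84.98, 129 and 76.1 in wild type lung at 12 months (-0.42 ± 0.21, adjusted p = 0.225). In mutant lungs at 7 months it read 107, 127 and 113, against 133, 168 and 209 in wild type lung (-0.48 ± 0.25, adjusted p = 0.302). All 3 mutant lungs lay below all 3 wild type lungs, and in tumours only the highest value reached into the wild type range. Neither difference was called. Of the AHR pathway, 5 of the 9 listed genes were measured. Nqo1, a quinone reductase that AHR and NRF2 both induce, was called higher in tumours (0.94 ± 0.21, adjusted p = 0.0340) and in mutant lungs (0.92 ± 0.13, adjusted p = 0.00374). Without the albumin-rich array its tumour value was 0.99, no longer called (adjusted p = 0.0821). Ahr, Arnt and Tiparp were not called, at 0.19, -0.03 and -0.53 in tumours and 0.11, -0.17 and -0.22 in mutant lungs. Ahrr, the receptor's repressor, stayed below 16 on average in every group.

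The probe set shared by Cyp2a5 and Cyp2a4 was higher at both ages. Cyp2a5 hydroxylates coumarin and nicotine, and Cyp2a4 hydroxylates testosterone. The probe set read 7341, 4803 and 7324 in tumours, against 1718, 1502 and 789 in wild type lung. In mutant lungs it read 5475, 6150.1 and 4229.95, against 1780, 1273 and 1955 in wild type lung. Values of tumours and mutant lungs all lay far above every wild type lung of their age. With p-values adjusted over 45037 probe sets, since it has no place among the 18193 genes, the log2 fold change was 2.31 ± 0.32 in tumours (4.97-fold, adjusted p = 0.0143). In mutant lungs it was 1.66 ± 0.18 (3.16-fold, adjusted p = 0.00137). Without tumour array 1 or tumour array 3 the tumour call was lost narrowly (adjusted p = 0.0552 and 0.0536). Without the albumin-rich array it stood at 2.53 in tumours (adjusted p = 0.0475) and at 1.48 in mutant lungs (adjusted p = 0.00353). The effects at the 2 ages differed by 0.65 ± 0.38 (adjusted p = 0.438).

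Cyp2s1, a P450 of epithelia outside the liver, rose in mutant lungs. It read 3006, 2869 and 2651 there, against 1999.8, 1903 and 1839 in wild type lung at 7 months. The groups were far apart for their small spread (0.57 ± 0.07, 1.48-fold, adjusted p = 0.00218). In tumours Cyp2s1 read 2875, 2046 and 2932, against 1895, 2322 and 1804 in wild type lung. Tumour array 2 fell within the wild type range, as it did for Aldh3b1, and the difference of 0.37 ± 0.17 was not called (adjusted p = 0.211).

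Cyp2b10 and Cyp4b1 were not called at either age. Cyp2b10, in mouse liver the main target of the receptor CAR, read 5497, 4177 and 4329.6 in tumours, against 4507, 5828 and 5035 in wild type lung (-0.14 ± 0.15, 95% interval -0.49 to 0.22, adjusted p = 0.592). In mutant lungs it read 5895, 5908 and 5029, against 6099.7, 5599 and 5712 in wild type lung (-0.05 ± 0.08, 95% interval -0.23 to 0.13, adjusted p = 0.753). Its other 2 probe sets gave log2 fold changes from -0.15 to -0.02, and its relatives Cyp2b9 and Cyp2b13 were not called either. Cyp4b1, which in rodent lung turns the plant toxin ipomeanol into its reactive form, read 4927, 4486 and 4579 in tumours, against 5332, 5688 and 4604 in wild type lung. Its values in mutant lungs were 7174, 7069.7 and 6039, against 7819, 7076 and 7669 in wild type lung. The log2 fold changes of Cyp4b1 were -0.15 ± 0.10 in tumours (95% interval -0.41 to 0.10) and -0.16 ± 0.08 in mutant lungs (95% interval -0.35 to 0.03).

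**Figure D2:**
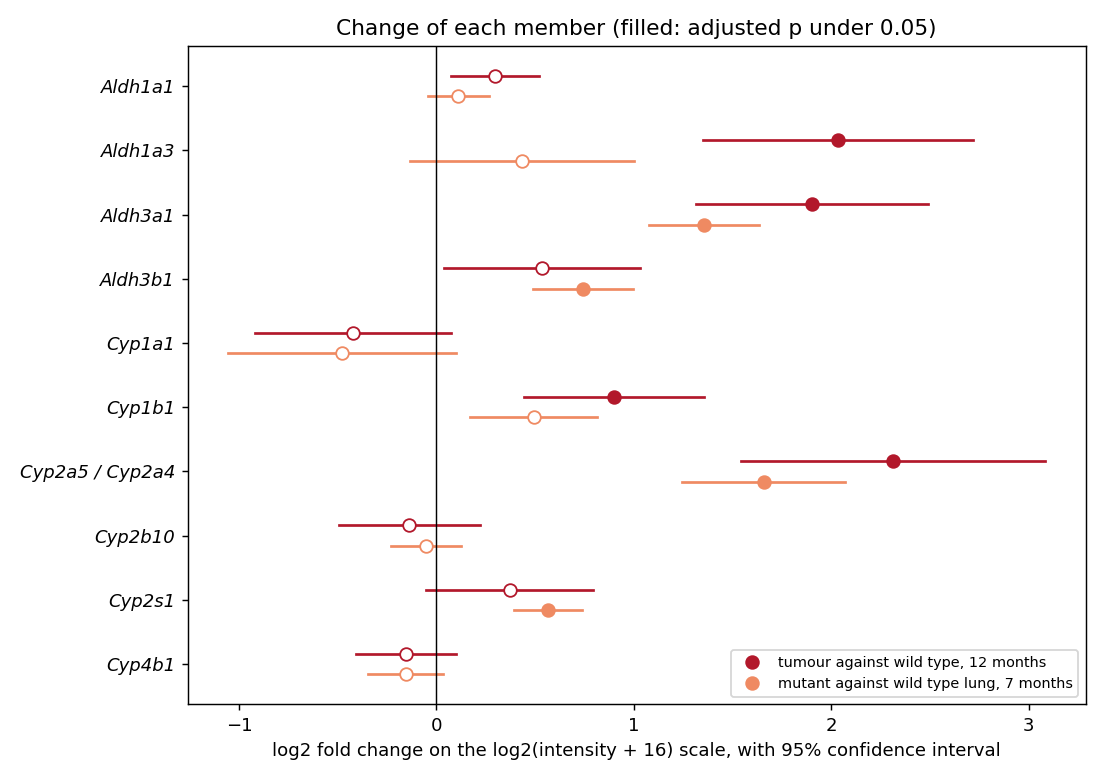
Log2 fold change of each gene on the log2(intensity + 16) scale with its 95% confidence interval, for tumours against wild type lung at 12 months and mutant against wild type lung at 7 months (filled points: adjusted p under 0.05; the shared Cyp2a5 and Cyp2a4 probe set is adjusted over all probe sets). Aldh3a1 and the shared probe set are filled at both ages, at 1.90 and 1.35 and at 2.31 and 1.66, while Cyp1a1, Cyp2b10 and Cyp4b1 lie below 0.

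Sex and tumour were partly confounded at 12 months. Against the 1 wild type lung with low Xist, and with the spread taken from other arrays, Aldh3a1 was higher by 1.43 (adjusted p = 0.00224), Aldh1a3 by 1.62 (adjusted p = 0.0214) and the shared Cyp2a5 and Cyp2a4 probe set by 2.07 (adjusted p = 0.00314). Cyp1b1 lost its call there (0.67, adjusted p = 0.0858). With sex as a term in the 6-array fit 0 of the 9 genes were called, and 1 gene of all 18193. Aldh3a1 then had adjusted p = 0.112, Aldh1a3 0.148 and Cyp1b1 0.276. As every tumour was low in Xist, this fit gave these genes the same log2 fold changes as the low-Xist comparison above. What differed was the estimate of the spread.

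**Figure D3:**
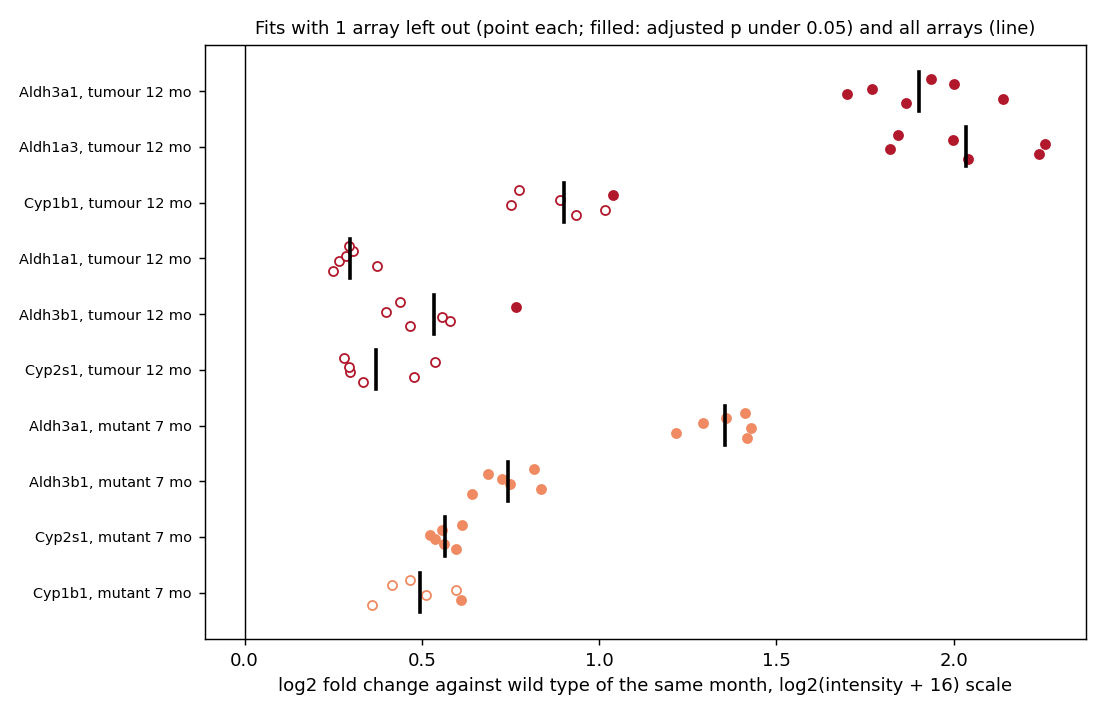
Log2 fold change (log2(intensity + 16) scale) of the genes called or nearly called, with all arrays (black line) and with each array left out in turn (points; filled where adjusted p is under 0.05). The points of Aldh3a1 are filled at both ages, those of Cyp1b1 in tumours are open except 1, and Aldh3b1 in tumours has 1 filled point at 0.77.

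Markers of airway cells were also called higher at both ages, and their part in the results was not tested. Summed intensity of 8 club cell markers ran from 63518 to 66275 in tumours, against 51782 to 59065 in wild type lung. In mutant lungs it ran from 67603 to 69480, against 51213 to 55477 in wild type lung. Scgb1a1, a part of these sums, read between 14428 and 16192 on the arrays reported, near the top of the measured range. The sums may therefore understate a change. Of these markers 3 were called higher in tumours and 5 in mutant lungs, and none had a group mean below 16. Beside them, 9.23% of all genes were called higher in tumours and 6.42% in mutant lungs. Cyp2f2, a P450 that marks club cells, averaged 10144 ± 173 in tumours and 8717 ± 494 in wild type lung (SD, n = 3 each) and was not called. Of 9 ciliated cell markers 9 were called higher in tumours and 8 in mutant lungs. Without the albumin-rich arrays 4 ciliated and 2 club cell markers were called in tumours, and 8 and 5 in mutant lungs. Among all 18193 genes 715 were then called higher in tumours and 1037 in mutant lungs. The median log2 fold change of the ciliated markers in tumours was then 1.36, against 1.41 with all arrays. The sums of the ciliated markers ran from 10432 to 15728 in tumours, against 5523 to 6816 in wild type lung, and from 6578 to 7886 in mutant lungs, against 4298 to 4381 in wild type lung.

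Basal and squamous markers were called higher for 6 of 6 genes in tumours and 2 of 6 in mutant lungs. Their sums ran from 2577 to 6381 in tumours, against 97.5 to 144 in wild type lung, and from 492 to 1064 in mutant lungs, against 287 to 336 in wild type lung. Krt14 and Krt17 averaged below 16 in wild type lung at both ages. Mucous cell markers were called higher for 6 of 6 in tumours and 3 of 6 in mutant lungs, with sums of 10884 to 14239 in tumours, against 1213 to 3298 in wild type lung. In mutant lungs these were 3982 to 4974, against 508 to 1248 in wild type lung. Endothelial markers were called lower for 5 of 8 in tumours and 3 of 8 in mutant lungs, and 4 of 6 macrophage markers in tumours. Cardiac muscle markers were called higher for 5 of 5 in tumours. Without the albumin-rich arrays 6 basal, 5 mucous and 4 cardiac markers were called higher in tumours, and 1 endothelial and 3 macrophage markers lower. The median of the endothelial markers in tumours was then -1.29. In mutant lungs 1 basal and 3 mucous markers were then called higher and 3 endothelial markers lower. Among all 18193 genes 715 were then called higher and 262 lower in tumours, and 1037 and 180 in mutant lungs. Probe sets for 18S ribosomal RNA averaged 1700.1 ± 504 in tumours and 6381 ± 778 in wild type lung, and 7199 ± 792 in mutant and 6953 ± 83.5 in wild type lung at 7 months (SD, n = 3 each).

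The genes most like each enzyme across all 15 arrays were sought among 12759 genes with a mean intensity of at least 64. These correlations are descriptions, since the points share groups and ages. Aldh3a1 was most like Aldh1a7 (r = 0.976), and Aldh1a7 also stood among the 3 genes most like Aldh1a1 (r = 0.907). Aldh1a3 was most like Krt15, a basal cell keratin (r = 0.918), and Aldh3b1 like Cnp (r = 0.973). Cyp1b1 was most like Mrps2 (r = 0.974), Cyp1a1 like Cd151 (r = 0.899), Cyp2s1 like Rptoros (r = 0.923), Cyp4b1 like Ppp1r13b (r = 0.962) and Cyp2b10 like Akr1c14 (r = 0.858). Among the 9 genes themselves, Aldh1a1 with Aldh3a1 (r = 0.896) and Aldh3a1 with Cyp2s1 (r = 0.838) were the closest pairs, and Cyp1b1 with Cyp4b1 was the most opposed (r = -0.851).

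Most relatives of these enzymes, like most genes, were not called. Of all genes 9.23% were called higher and 6.02% lower in tumours, and 6.42% and 1.39% in mutant lungs. Of 16 other aldehyde dehydrogenases, 2 were called higher and 0 lower in tumours and 1 higher in mutant lungs, with median log2 fold changes of -0.07 and -0.04. Besides Aldh1a7 these were Aldh18a1, which makes the proline precursor, at 816 ± 98.1 in tumours and 417 ± 59.1 in wild type lung (0.95 ± 0.14, adjusted p = 0.0117). Of 28 measured P450s of families 1 to 4 outside the 10, 2 were called higher and 2 lower in tumours and 1 higher in mutant lungs (medians -0.20 and -0.01). The fatty acid hydroxylase Cyp4a12a averaged 220.4 in tumours and 19.7, little above 16, in wild type lung (2.63 ± 0.41, adjusted p = 0.0131). Xist read above 1000 on 0 of 3 tumours and 2 of 3 wild type lungs, and the part of sex in this rise was not tested. Cyp4f15, of a family that hydroxylates fatty acids and eicosanoids, rose at both ages (1.77 ± 0.32, adjusted p = 0.0186, in tumours and 0.35 ± 0.07, adjusted p = 0.0196, in mutant lungs). Cyp2d22 (-1.06 ± 0.20, adjusted p = 0.0215) and Cyp4v3 (-0.70 ± 0.17, adjusted p = 0.0396) fell in tumours. Without the albumin-rich array Cyp2d22 stood at -0.91 (adjusted p = 0.0641) and Cyp4v3 at -0.66 (adjusted p = 0.119), neither called.

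Of 23 measured P450 partners and other enzymes of foreign compounds, 8 were called higher and 3 lower in tumours, and 8 higher and 0 lower in mutant lungs. Their medians were 0.17 and 0.03. Beside them, 9.23% of all genes were called higher and 6.02% lower in tumours, and 6.42% and 1.39% in mutant lungs. The sulfotransferases Sult1c1 (5.77 ± 0.19, adjusted p = 0.000819, in tumours and 2.64 ± 0.53, adjusted p = 0.0197, in mutant lungs) and Sult1d1 (2.88 ± 0.33, adjusted p = 0.00681, and 1.53 ± 0.15, adjusted p = 0.000480) rose at both ages. Gsto1, a glutathione transferase, was higher by 1.19 at both ages. It averaged 11702 ± 567 in tumours and 5183 ± 910.3 in wild type lung, and 8207 ± 499 in mutant and 3607 ± 371 in wild type lung (SD, n = 3 each). The aldo-keto reductase Akr1b8 averaged 1517 ± 160.3 in tumours and 810.3 ± 23.6 in wild type lung, and 1153 ± 55.98 in mutant and 569 ± 41.2 in wild type lung (1.85-fold with adjusted p = 0.00664, and 1.999-fold with adjusted p = 0.000156). The 3 lower in tumours were the flavin monooxygenases Fmo1 (-0.87), Fmo2 (-0.50) and Fmo5 (-0.49), which without the albumin-rich array stood at -0.86, -0.58 and -0.41 and were not called. The list then had 6 genes called higher and 0 lower in tumours, and 9 and 0 in mutant lungs. Among all 18193 genes these counts were 715 and 262 in tumours, and 1037 and 180 in mutant lungs.

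Of 18 measured genes of retinoid metabolism and its receptors, 2 were called higher and 1 lower in tumours and 2 higher in mutant lungs (medians -0.05 and 0.00). Beside them, 9.23% of all genes were called higher and 6.02% lower in tumours, and 6.42% higher in mutant lungs. Both genes of the list called higher make retinaldehyde, the substrate of Aldh1a3, and a link between them and Aldh1a3 was not tested. Adh7, a retinol dehydrogenase, averaged 1083 ± 601 in tumours and 116 ± 24.9 in wild type lung (2.94 ± 0.37, adjusted p = 0.00892). Rdh10, the main embryonic retinol dehydrogenase, averaged 2125 ± 157 in tumours and 1024 ± 156 in wild type lung (1.05 ± 0.13, adjusted p = 0.00921). In mutant lungs Adh7 rose by 0.74 (adjusted p = 0.0456) and Rdh10 by 0.51 (adjusted p = 0.0196), and without the albumin-rich array they stood at 0.63 and 0.44, not called (adjusted p = 0.116 and 0.0566). Rdh11, by its name also a retinol dehydrogenase, fell in tumours (-0.80 ± 0.12, adjusted p = 0.0131). The retinoic acid hydroxylases Cyp26a1 (0.60) and Cyp26b1 (-1.02), the storage enzyme Lrat (-1.63) and the retinoic acid receptor Rarb (0.50) were not called in tumours.

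NRF2, a regulator of antioxidant genes, is encoded by Nfe2l2 and held back by Keap1. Of 12 listed genes, these and NRF2 targets, 7 were called higher in tumours and 5 in mutant lungs and 0 lower. Their medians were 0.36 and 0.27. Without the albumin-rich arrays 3 were called at each age, with medians of 0.37 and 0.20. Over all genes 715 were then called higher in tumours and 1037 in mutant lungs, against 1679 and 1168 with all arrays. Gpx2, a glutathione peroxidase, rose by 2.15 ± 0.20 in tumours and 1.47 ± 0.10 in mutant lungs (adjusted p = 0.00543 and 0.000144). Gsta4, which conjugates the lipid aldehyde hydroxynonenal, rose by 1.43 ± 0.12 and 0.73 ± 0.09 (adjusted p = 0.00414 and 0.00191).

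**Figure D4:**
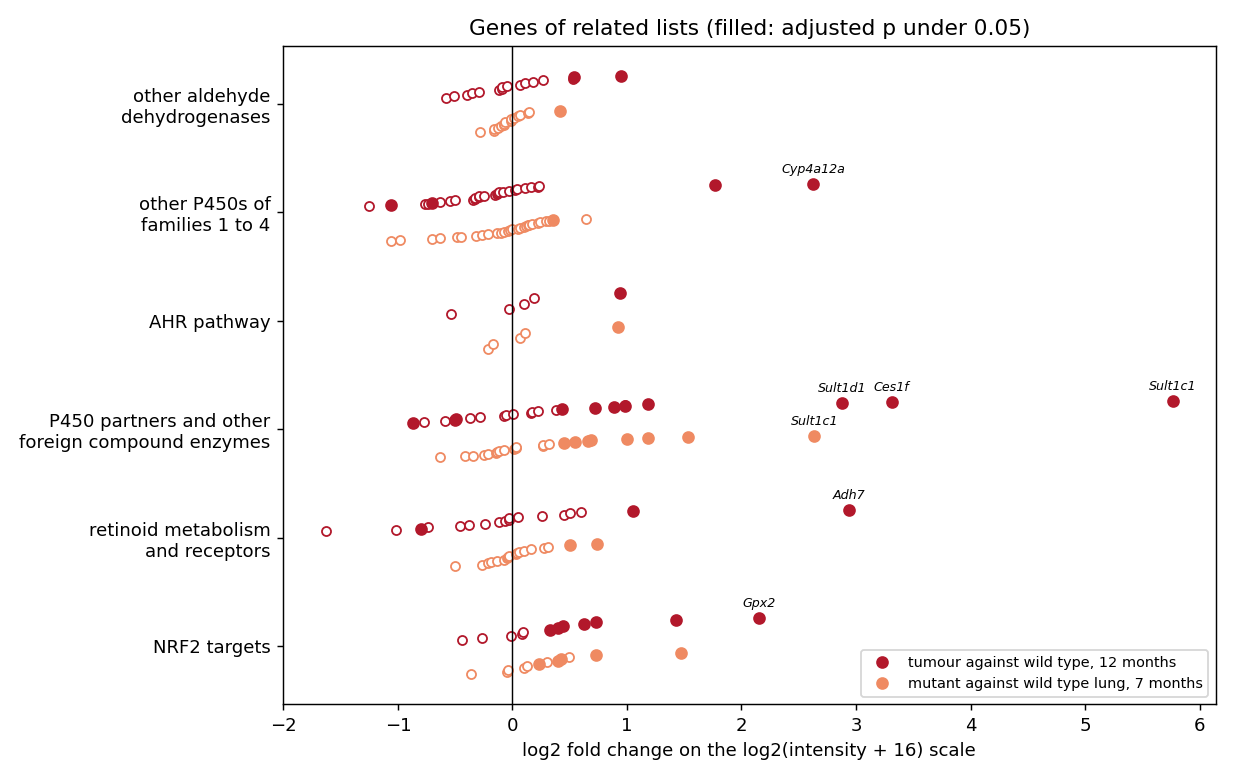
Log2 fold change on the log2(intensity + 16) scale of every measured gene of 6 related lists (a point per gene, filled where adjusted p is under 0.05), for tumours against wild type lung at 12 months and mutant against wild type lung at 7 months. Sult1c1 stands farthest out, at 5.77 in tumours, while most points of the other aldehyde dehydrogenases and P450s are open and close to 0.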

How the data were processed

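Lung and tumour RNA was hybridised to 15 single-colour Affymetrix arrays, 3 per group. Per the labels' protocols, 250 ng of TRIzol-extracted RNA was turned into biotinylated cRNA with the 3' IVT Express protocol. The authors deposited probe set intensities on a linear scale; no source used here says how they were scaled. Medians of the arrays ran from 95.7 to 99.5 at 12 months and from 90.9 to 94.3 at 7 months, so no further scaling was applied. Between 17.1% and 21.1% of the values on an array lay below 16.

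Gene names came from the platform annotation: of 45101, 34958 carry 1 symbol, 932 several and 9211 are not listed. Intensities were transformed as log2(intensity + 16) and tested two-sided with lmFit and eBayes of limma 3.58.1, in R 4.3.3, with Benjamini-Hochberg adjustment over 18193 genes. The 12-month fit used its 6 arrays, the 7-month fit 9, and the tumour effect minus the mutant lung effect 15. A further part of the mutant genotype and 1 group of 3 arrays at 7 months are not reported here; those arrays enter the spread, the choice of probe sets and the correlations. The labels do not say that arrays hold separate animals, so p-values measure the spread between these samples. Precision is limited by having only 3 arrays a group.

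The members and gene lists were chosen with earlier results of these data known. Named were all members, their near copies, Smad4, up to 4 called genes per list by smallest adjusted p, and the most correlated genes; the text gives a part of these. Genes named from the lists though not called were chosen after their values were seen. Same-numbered 7-month arrays did not deviate together, so replicate numbers were not used as a block. Alternatives were quantile normalization, median centring, a filter at 64, a variance trend, array weights, other pseudocounts, the mean of all probe sets, other sets of arrays, sex as a term, a replicate block and leaving out each array. Those on low-Xist arrays, on the shared probe set and on the albumin-rich arrays were chosen after seeing the data. The steps were tested on simulated data.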

Additional observations from a re-analysis of the deposited data

Results flagged for a closer look

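Among the 9 measured members and the genes of the 6 related lists, the effect in tumours at 12 months differed from that in mutant lung at 7 months for 9 genes, by the test of the difference itself (limma, adjusted over all genes). Over all 18193 genes this difference was called above 0 for 1.75% and below 0 for 1.41%. Age, tumour against whole lung and the set of arrays differed together between these effects, so their parts cannot be told apart. Larger in tumours were Sult1c1 by 3.13 on the log2 scale (adjusted p = 0.0229), Ces1f, a carboxylesterase, by 2.65 (adjusted p = 0.0209) and Adh7 by 2.21 (adjusted p = 0.0164). So were Aldh1a3 by 1.60 (adjusted p = 0.0499), Cyp4f15 by 1.42 (adjusted p = 0.0345), Aldh18a1 by 1.02 (adjusted p = 0.0111) and Gsta4 by 0.70 (adjusted p = 0.0241). The difference was negative for Rdh11 (-0.86, adjusted p = 0.00996) and Cyp4v3 (-0.80, adjusted p = 0.0432). Without both albumin-rich wild type arrays the differences were 2.96 for Sult1c1, 0.67 for Gsta4, -0.86 for Cyp4v3 and 1.80 for Aldh1a3, none of them called (adjusted p = 0.0763, 0.0780, 0.0571 and 0.0658).

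Outside the genes with a probe set of their own, the probe set shared by Cyp2a5 and Cyp2a4 was higher by 2.31 in tumours and by 1.66 in mutant lungs than in wild type lung.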

How the results depend on the processing

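Of 522 values of a member under an alternative, 476 kept direction and side of the threshold, 22 lost a call, 8 gained one and 16 changed sign. In tumours the count of genes called higher was 3, became 5 in 1 fit of all 15 arrays and 0 with sex as a term, and ran from 2 to 4 with 1 array left out. In mutant lungs it ran from 3 to 4. For the tumour effect minus the mutant lung effect it was 1. It became 0 under quantile normalization, median centring, pseudocounts of 1 and 64, the mean of all probe sets and low-Xist wild type lungs only, and ran from 0 to 1 with 1 array left out. The causes were not tested. The replicate block at 7 months left 3 genes called higher and 0 lower. Deviations of same-numbered arrays correlated at -0.13, 0.02 and -0.08, and those of differently numbered arrays at -0.04 to 0.14. With 3 arrays a group this cannot exclude a pairing. The block left 992 of all genes called higher and 157 lower, against 1168 and 253.

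The sign changes were all of small values that were not called. Leaving out 1 array moved Cyp2b10 in mutant lungs between -0.091 and 0.025. It moved the tumour effect minus the mutant lung effect from -0.090 to 0.25 for Cyp1a1 and from -0.21 to 0.012 for Cyp2b10. The same difference moved from -0.34 to 0.023 for Aldh3b1 and from -0.084 to 0.068 for Cyp4b1. That of Cyp4b1 also turned under median centring (-0.0061), array weights (-0.015) and low-Xist wild type lungs only (-0.13), where Cyp1a1 read -0.34. Counts over all genes were less stable. In tumours they ran from 622 to 1900 higher and from 220 to 1426 lower with 1 array left out, against 1679 and 1095, and with sex as a term 1 and 0.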
